A study of Isostichopus badionotus with 6 samples.

Results

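The assembled loci followed here, 3 in number, are those whose best described transcripts match genes of protein folding stress, measured in the body wall of 6 captive sea cucumbers, Isostichopus badionotus. They are Locus_4592, of which transcript 13 has a kinase, EIF2AK3, as its nearest database match, Locus_1386, of which transcript 28 matches the co-chaperone DNAJC3, and Locus_12, of which transcript 9 matches the chaperone hsc70. The loci were chosen with earlier results of these data known. Within them members were taken by identifier alone, as every transcript of these loci in the count table. That gave 3, 6 and 13 transcripts, or 22 of the 129776 transcripts and 3 of the 80132 loci. A locus is a cluster of assembled sequences that share stretches and may hold isoforms, fragments or related genes, so only the 3 matched transcripts carry a gene name here and the other 19 are given by number. The matches themselves come from other species, a pangolin (Manis javanica) for EIF2AK3, a lizard (Pogona vitticeps) for DNAJC3 and another sea cucumber (Apostichopus japonicus) for hsc70.

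EIF2AK3, also called PERK, is a kinase of the endoplasmic reticulum membrane. In mammals it is activated when unfolded proteins build up in that compartment, and it phosphorylates the alpha subunit of the translation initiation factor eIF2, which lowers protein synthesis in general. DNAJC3, also called p58IPK, is an Hsp40-type protein that works with the chaperone GRP78 (BiP) in the endoplasmic reticulum and is known from mammals as an inhibitor of PERK. The hsc70 protein is the constitutive member of the 70 kDa heat shock family in the cytosol, where it folds new proteins and takes part in the uncoating of clathrin vesicles.

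The animals were 2 labelled as adults adapted to captivity, adults 5 and 6, and 4 labelled as juveniles in captivity, juveniles 1 to 4, whereas the design text of the series calls all 6 farmed juveniles. Pieces of body wall of each eviscerated animal were pooled into 1 RNA sample, so each animal is 1 replicate. The sources used here do not give the age of the adults or their time in culture, and stage, origin and adaptation to captivity cannot be told apart between the groups. Fold changes are adults over juveniles, and no wild animal was analysed here.

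Column totals were 23771295 and 26189571 counts in adults 5 and 6 and ran between 21714696 and 31742950 in the juveniles. Levels are CPM, counts divided by library size, on totals scaled by TMM, a factor that corrects for the RNA taken up by a few abundant transcripts. That factor was 0.973 and 0.586 in adults 5 and 6 and 1.04 to 1.32 in the juveniles, and adult 6 stood apart, with 59.4% of its counts in its 50 most abundant transcripts, against 43.1% in adult 5 and 30.4% to 39.8% in the juveniles. Mitochondrial loci held 20.1% and 21.7% of counts in the adults and 14.0% to 21.5% in the juveniles. Muscle markers, which stand for another cell type of the body wall, were all detected in all animals, and the 8 of them summed to 2746 and 2490 CPM in adults 5 and 6 and to 1684, 158, 477 and 2437 CPM in juveniles 1 to 4. The same animal, juvenile 2, had the lowest level of all 3 named transcripts with TMM, whereas with plain totals it was lowest for DNAJC3 alone and adult 6 was lowest for EIF2AK3 (3.44 CPM, against 4.97 CPM in juvenile 2) and for hsc70. In a bulk sample fewer cells of a type and less RNA per cell cannot be told apart.

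Per length of assembled sequence, hsc70 was the most abundant of the 3 named transcripts and EIF2AK3 the least. The hsc70 transcript (1931 nt) averaged 28.8 CPM per kb in the adults and 17.5 ± 2.38 CPM per kb in the juveniles. DNAJC3 (1290 nt) averaged 7.30 CPM per kb in the adults and 6.63 ± 3.33 CPM per kb in the juveniles. EIF2AK3 (3613 nt) averaged 1.79 CPM per kb in the adults and 1.85 ± 0.485 CPM per kb in the juveniles (SD, n = 4 juveniles throughout, and n = 2 adults, for which both values are given below). The order hsc70, DNAJC3, EIF2AK3 held for these means in both groups, and the juvenile means of hsc70 and DNAJC3 lay further apart than their SDs, as did those of DNAJC3 and EIF2AK3. Set among the 9979 transcripts that passed the filter described below, where the median over 6 animals was 10.5 CPM per kb, 69.0% had a lower level per length than hsc70, 34.4% a lower one than DNAJC3 and 1.10% a lower one than EIF2AK3. That filter leaves out transcripts of low CPM and only uniquely matching reads were counted, so the ranks hold among the tested transcripts alone. Summed per length over its 3 counted transcripts, Locus_4592 averaged 5.41 CPM per kb in the adults and 8.50 CPM per kb in the juveniles.

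EIF2AK3 was at nearly the same level in adults and juveniles. Transcript 13 of Locus_4592 had 7.05 and 5.86 CPM in adults 5 and 6, against 8.70, 4.77, 5.75 and 7.47 CPM in juveniles 1 to 4. Both adults lay inside the range of the juveniles, of which juvenile 1 was highest and juvenile 2 lowest. The log2 fold change was -0.05 with a standard error of 0.36 and a 95% interval of -0.89 to 0.80 (edgeR's quasi-likelihood test, adjusted p = 0.975). Its sign depended on the scaling, with 0.14 when TMM was computed over all counted transcripts, a choice made after the data were seen, and -0.60 with plain library totals. The median over all tested transcripts moved with it, standing at -0.11, 0.05 and -0.67 under these scalings, so that EIF2AK3 was 0.07, 0.08 and 0.08 above it on the log2 scale.

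The other transcripts of Locus_4592 averaged lower in the adults, without passing the test. Transcript 16 (2230 nt) had 6.18 and 5.86 CPM in adults 5 and 6, against 8.33, 11.1, 14.3 and 13.3 CPM in juveniles 1 to 4. Both adults were below all 4 juveniles, at -0.96 on the log2 scale (SE 0.36, unadjusted p = 0.0279 and adjusted p = 0.560 from edgeR), and they stayed below with plain totals, where they had 6.02 and 3.44 CPM against 9.36 to 17.5 CPM. Transcript 5, the longest of the 3 at 4915 nt, had 5.93 and 3.13 CPM in the adults, against 8.22, 6.62, 5.25 and 7.07 CPM in juveniles 1 to 4. Adult 6 was the lowest animal for it and adult 5 lay inside the juvenile range, and it fell short of the filter in adult 6 and was not tested. In sum Locus_4592 had 19.2 and 14.8 CPM in adults 5 and 6, against 25.3, 22.5, 25.3 and 27.8 CPM in the juveniles. The adults again lay below all juveniles, at -0.48 on the log2 scale (SE 0.29, edgeR adjusted p = 0.635), with -0.27 without adult 6 and -1.10 with plain totals. The juvenile sums varied by 8.56% (coefficient of variation) while those of EIF2AK3 alone varied by 26.3%.

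DNAJC3 varied between single animals more than between the groups. Transcript 28 of Locus_1386 had 11.1 and 7.75 CPM in adults 5 and 6, against 8.50, 3.57, 14.1 and 8.08 CPM in juveniles 1 to 4. Juvenile 3 was highest and juvenile 2 lowest of the 6, and the adults lay between them. The log2 fold change was 0.14 (standard error 0.52, 95% interval -1.07 to 1.34, adjusted p = 0.944 from edgeR). The coefficient of variation over the juveniles was 50.2%, where counting error alone at their mean count gives 5.86%, and 75.1% of all tested transcripts had a smaller juvenile SD on the log2 scale.

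Transcript 31 of Locus_1386 (3093 nt), which is not named, held more counts than any other transcript of that locus in every animal, 57.0% and 46.6% in adults 5 and 6 and 43.3% to 74.1% in the juveniles. It had 19.9 and 11.5 CPM in adults 5 and 6, against 24.8, 25.5, 26.0 and 9.44 CPM in juveniles 1 to 4. Juvenile 4 stood apart from the other 3 juveniles, which were nearly equal, and the adults lay between it and them. With plain totals adult 6 was the lowest animal instead, at 6.76 CPM against 12.5 CPM in juvenile 4. Its log2 fold change was -0.45 (SE 0.50, edgeR adjusted p = 0.769), and it was -0.91 without adult 5 and -0.044 without adult 6. Juvenile 2, with the least DNAJC3, thus had one of the highest levels of transcript 31. Among the juveniles, juvenile 4 had the least of transcript 31 with an intermediate level of DNAJC3. Transcript 24 (678 nt) had 2.85 and 3.26 CPM in the adults, against 1.85, 1.01, 3.01 and 2.16 CPM in juveniles 1 to 4, so that the groups overlapped and juvenile 2 was again lowest. Transcripts 44 (1282 nt) and 39 (989 nt) went the other way in that animal, with 2.56 and 1.68 CPM in juvenile 2 and at most 1.56 and 1.23 CPM in the other juveniles. In the adults transcript 44 had 0.432 and 1.04 CPM and transcript 39 had 0.519 and 1.11 CPM. Transcript 19 (560 nt) had 34 counts over all 6 animals, 1 to 13 in each. The sum of Locus_1386 was 34.9 and 24.7 CPM in adults 5 and 6, against 35.8, 34.4, 45.9 and 21.8 CPM in the juveniles, with overlapping groups and a difference of -0.13 on the log2 scale (SE 0.38, edgeR adjusted p = 0.929).

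The hsc70 transcript and the sum of its locus were higher in both adults than in any juvenile, by an amount that did not pass the test. Transcript 9 of Locus_12 had 64.0 and 47.1 CPM in adults 5 and 6, against 35.9, 26.9, 36.0 and 36.5 CPM in juveniles 1 to 4. Juveniles 1, 3 and 4 were within 0.562 CPM of each other and juvenile 2 was lowest. The log2 fold change was 0.72 (standard error 0.33, 95% interval -0.05 to 1.48, unadjusted p = 0.0622 and adjusted p = 0.560 from edgeR). The juveniles were close together, since their coefficient of variation was 13.6% where counting error gives 2.99%, and only 11.3% of tested transcripts had a smaller juvenile SD on the log2 scale. In sum Locus_12 had 113 and 101 CPM in adults 5 and 6, against 61.9, 62.6, 67.5 and 80.0 CPM in juveniles 1 to 4. Its log2 fold change was 0.74 (standard error 0.31, 95% interval 0.03 to 1.45, unadjusted p = 0.0427 and adjusted p = 0.600 from edgeR).

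The gap between the groups in Locus_12 was not there with plain totals. With plain totals hsc70 had 62.3 and 27.6 CPM in adults 5 and 6, against 40.3, 28.1, 40.7 and 48.2 CPM in juveniles 1 to 4, so that adult 6 was the lowest animal, and the log2 fold change was 0.19 (adjusted p = 0.816 from edgeR). The locus sum likewise had 110.1 and 59.1 CPM in the adults, against 69.5, 65.3, 76.5 and 105.8 CPM in the juveniles. Relative to the median of all tested transcripts, the log2 fold change of hsc70 was 0.83 with TMM and 0.87 with plain totals. The levels with both scalings, for the named transcripts and the locus sums, are set out by animal in the plot of levels.

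**Figure D1:**
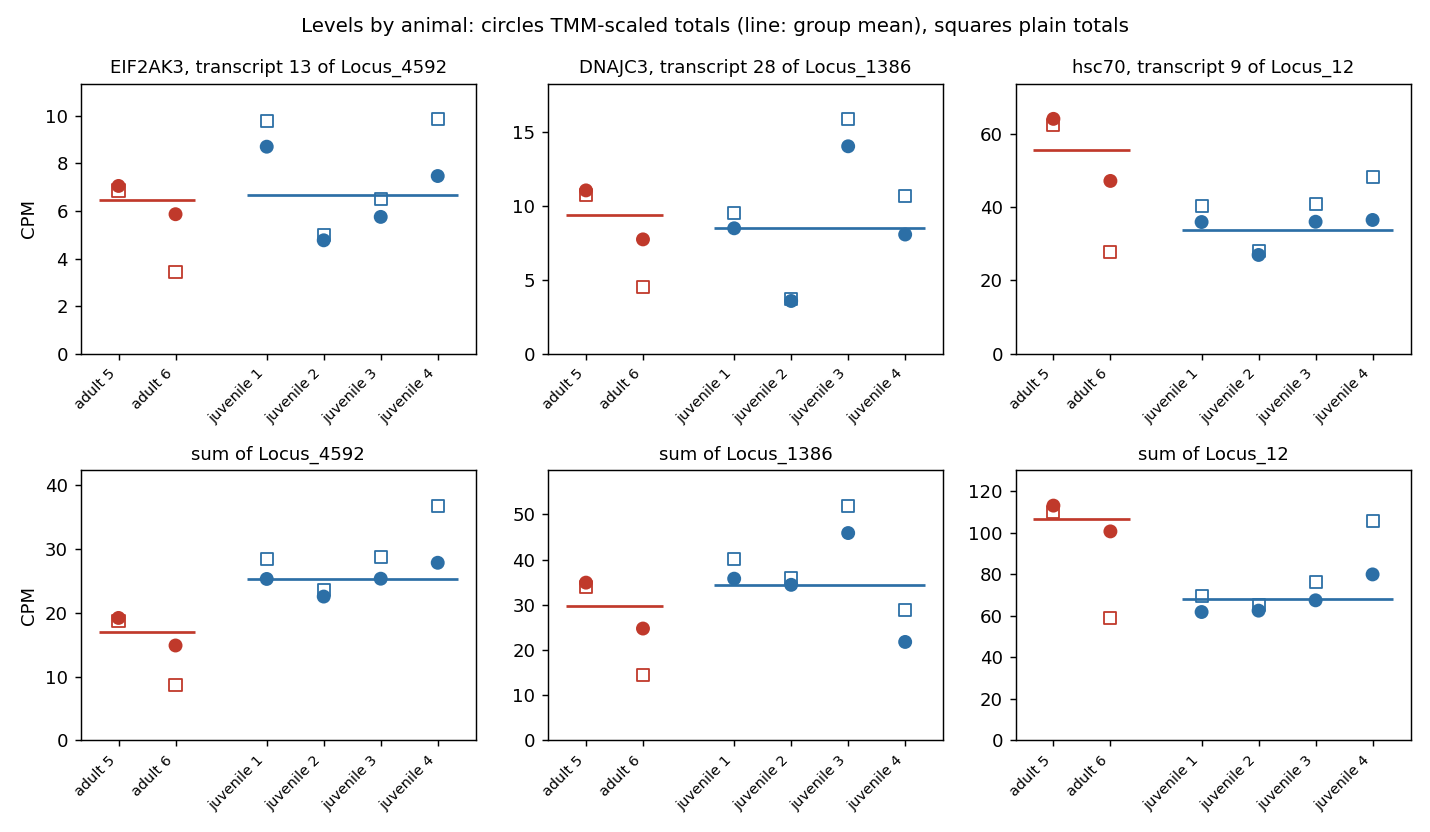
CPM (vertical axes, from 0) of the 3 named transcripts in the upper row and of the sums of their loci in the lower row, for adults 5 and 6 (red, left) and juveniles 1 to 4 (blue, right). Filled circles use TMM-scaled totals, with a line at each group mean, and open squares use plain totals; the circles of both adults lie above all juveniles for hsc70 and the Locus_12 sum and below them for the Locus_4592 sum, while the squares of hsc70 and the Locus_12 sum overlap.

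Transcript 4 of Locus_12 (1198 nt) had an order of animals like that of hsc70, with a wider spread among the juveniles. It had 33.0 and 32.2 CPM in adults 5 and 6, against 14.9, 7.19, 17.0 and 29.1 CPM in juveniles 1 to 4. Both adults were above all juveniles and juvenile 2 was lowest (log2 fold change 0.94, SE 0.51, edgeR adjusted p = 0.572). With plain totals it had 32.1 and 18.9 CPM in the adults, against 16.7, 7.51, 19.2 and 38.5 CPM in the juveniles, so that both adults were below juvenile 4 and the log2 fold change was 0.32. Transcript 10 (1288 nt), which was below the filter, had 3.72 and 3.91 CPM in the adults, against 2.81, 2.87, 1.65 and 3.39 CPM in the juveniles, with both adults above but close to juvenile 4.

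Transcripts 18 and 19 were highest in juvenile 2, the animal lowest for hsc70. Transcript 18 (841 nt) had 6.36 and 9.38 CPM in adults 5 and 6, against 3.28, 21.3, 8.11 and 4.91 CPM in juveniles 1 to 4. Juvenile 2 was far above the other animals, and the log2 fold change of -0.25 (SE 0.73, edgeR adjusted p = 0.920) became 0.60 without that animal. A smaller juvenile SD on the log2 scale was found for 87.5% of the tested transcripts. Transcript 19 (862 nt) had 2.03 and 2.54 CPM in the adults, against 0.645, 3.53, 1.18 and 1.49 CPM in juveniles 1 to 4, again with juvenile 2 highest. By contrast transcripts 29, 38 and 41 had 0 counts in juvenile 2, where 3 counts, the limit that a count of 0 allows, are 0.132 CPM. In the other juveniles they had 16 to 62, 5 to 23 and 38 to 57 counts, and in adults 5 and 6 they had 19 and 7, 26 and 2, and 22 and 36 counts. Transcripts 22 and 36 were lowest in juvenile 2 too, with 6 counts each. Transcripts 34 and 45 had 1 to 10 counts and 0 to 4 counts in an animal, and transcript 43 (235 nt) had 0 counts in all 6 animals. Only uniquely matching reads were counted, so the level of a transcript also depends on how much of its sequence no other transcript of the locus shares, and levels within a locus are uncertain for that reason.

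**Figure D2:**
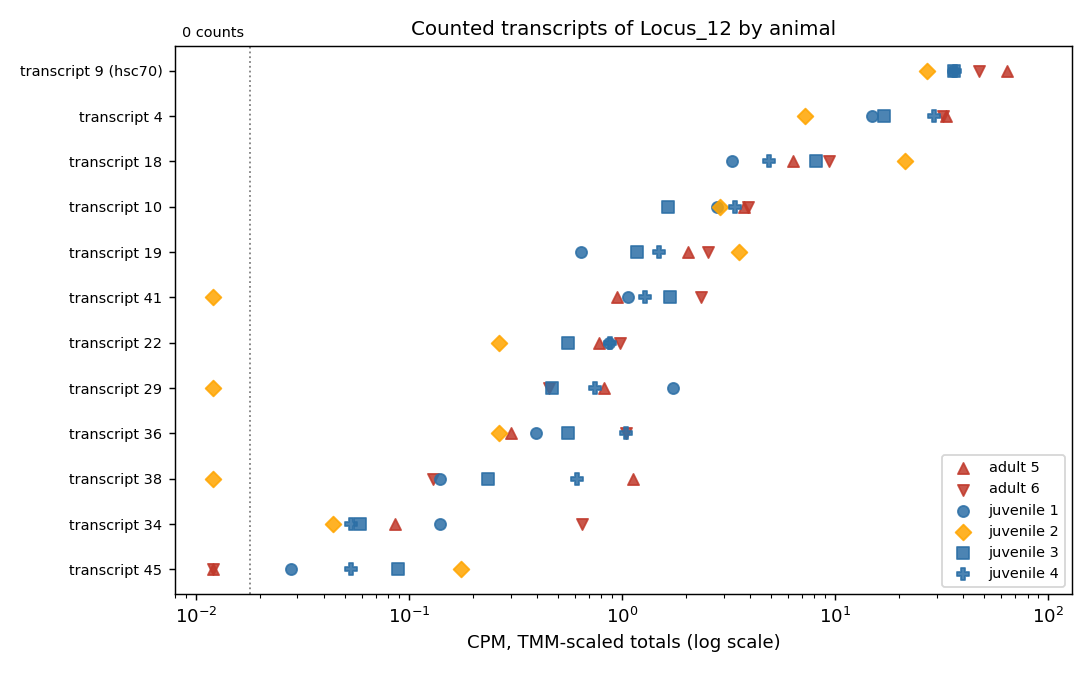
CPM on a log axis (TMM-scaled totals) for the 12 transcripts of Locus_12 with a count in any animal, 1 row each, ordered by mean level, with adults 5 and 6 in red and the juveniles in blue except juvenile 2 in orange. Points left of the dotted line are at 0 counts; juvenile 2 is rightmost for transcripts 18 and 19, leftmost for transcripts 9 (hsc70) and 4, and at 0 for transcripts 29, 38 and 41.

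The named transcript made up a varying part of its locus. Of the counts of Locus_4592, EIF2AK3 held 36.8% and 39.5% in adults 5 and 6, against 34.4%, 21.2%, 22.7% and 26.9% in juveniles 1 to 4. Both adults were above all juveniles, although the 95% Wilson intervals of adult 5 (32.4% to 41.4%) and juvenile 1 (31.4% to 37.6%) overlap, and the difference of the means was 11.8 percentage points (exact permutation test, two-sided, p = 0.133). DNAJC3 held 31.7% and 31.3% of Locus_1386 in the adults, against 23.8%, 10.4%, 30.7% and 37.1% in juveniles 1 to 4. These groups overlapped, with juvenile 2 far below the rest (difference 6.05 points, exact permutation p = 0.533). The difference was 1.02 points without juvenile 2 and 9.92 points without juvenile 4. For hsc70 the share of Locus_12 was 56.6% and 46.7% in the adults, against 58.0%, 43.0%, 53.3% and 45.6% in the juveniles, a difference of 1.69 points (exact permutation p = 0.667). With 15 arrangements of 2 adults among 6 animals the smallest p possible is 0.0667, so none of these 3 comparisons could pass 0.05. Wilson intervals reached at most 6.29 points to either side for EIF2AK3, 4.64 for DNAJC3 and 2.57 for hsc70 and cover counting error only.

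**Figure D3:**
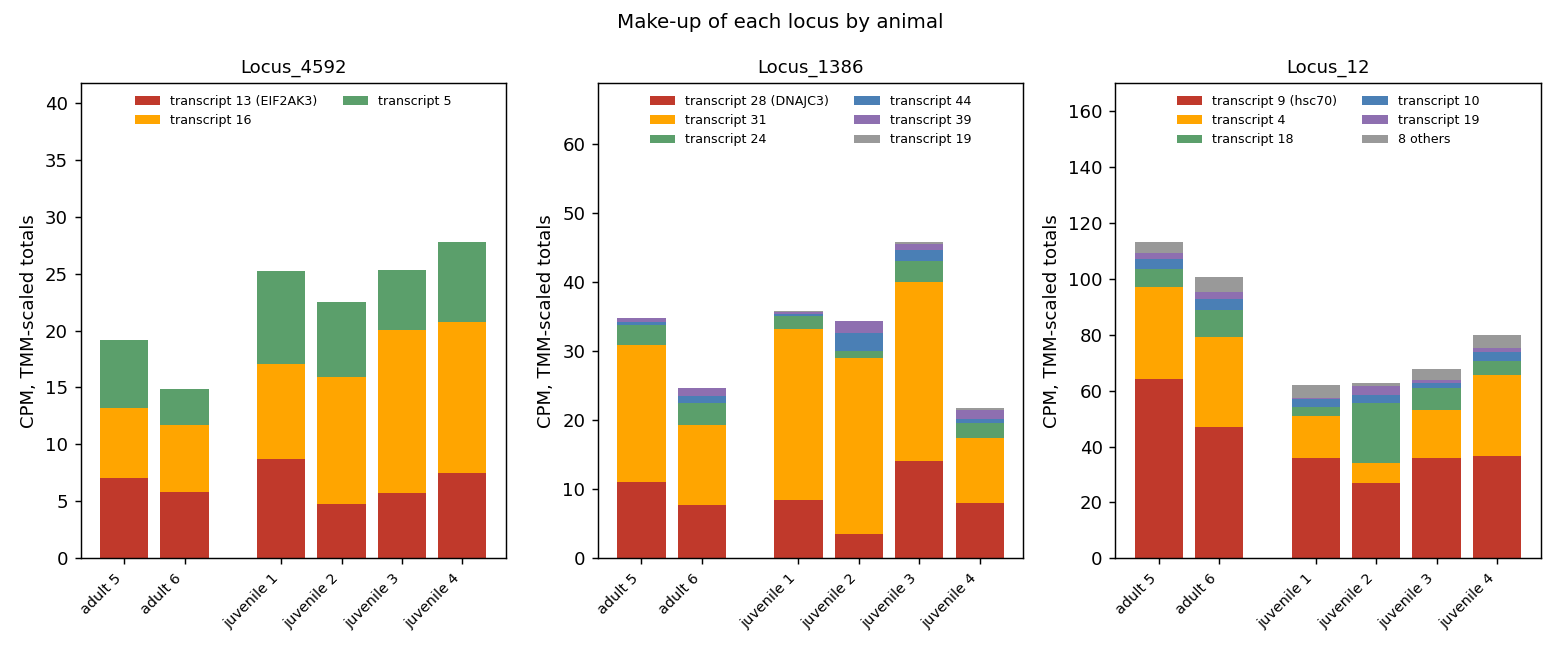
Stacked bars of CPM (TMM-scaled totals) by animal for each locus, adults 5 and 6 at the left of each panel and juveniles 1 to 4 at the right. Red is the named transcript, the other colours are the next transcripts by mean level and grey is the rest; in juvenile 2 the part of transcript 18 in Locus_12 is the widest of all animals and the red part of Locus_1386 the smallest.

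Of the 22 members 17 had a count in all 6 animals, and 7 passed the filter, which asked for 3 CPM from plain totals in both adults and no fewer than 3 juveniles. Among the 7, 3 had a log2 fold change above 0 and 4 below it, with a median of -0.05, where the median of the 9979 tested transcripts was -0.11. None had an adjusted p under 0.05 in edgeR's quasi-likelihood test, which called 0% of all tested transcripts. An unadjusted p under 0.05 was found for 1 of the 7, transcript 16 of Locus_4592, and for 8.30% of all. DESeq2, which called 190 transcripts, and edgeR's exact test, which called 11, called none of the 7 (lowest adjusted p 0.127 in DESeq2). Both adults were above all juveniles for 2 of the 7, transcripts 9 and 4 of Locus_12, and for 8.55% of all tested transcripts, and with plain totals for 0 of the 7 and 1.88% of all. They were below all juveniles for 1 of the 7, transcript 16 of Locus_4592, and for 12.3% of all, and with plain totals for the same transcript and 27.7% of all.

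Sums over loci gave the same picture. None of the 3 sums had an adjusted p under 0.05 in edgeR, where 0% of 8876 tested loci did, and 1 of the 3, Locus_12, had an unadjusted p under 0.05, as did 7.94% of all loci. DESeq2 called 154 loci and edgeR's exact test 7, none of them among the 3. The nearest was the Locus_12 sum in DESeq2, with an adjusted p of 0.0569. Both adults were above all juveniles for Locus_12, as for 6.69% of tested loci, and below them for Locus_4592, as for 14.5%. With plain totals 0 of the 3 sums had both adults above, as 1.33% of loci did, and Locus_4592 again had both below, as 31.9% did.

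Usage within the loci, the log2 change of a transcript relative to its locus, was tested for the same 7 members with edgeR's diffSpliceDGE. The locus here means its tested transcripts alone, 2 of Locus_4592, 2 of Locus_1386 and 3 of Locus_12. Transcript 5 of Locus_4592, for example, was left out. Usage was 0.51 for EIF2AK3, with -0.40 for transcript 16 of the same locus, 0.39 for DNAJC3, with -0.19 for transcript 31, and 0.04 for hsc70, with 0.26 for transcript 4 and -0.93 for transcript 18. None of the 7 had an adjusted p under 0.05, where 0% of 3646 transcripts did, and none had an unadjusted p under 0.05, where 1.21% did.

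**Figure D4:**
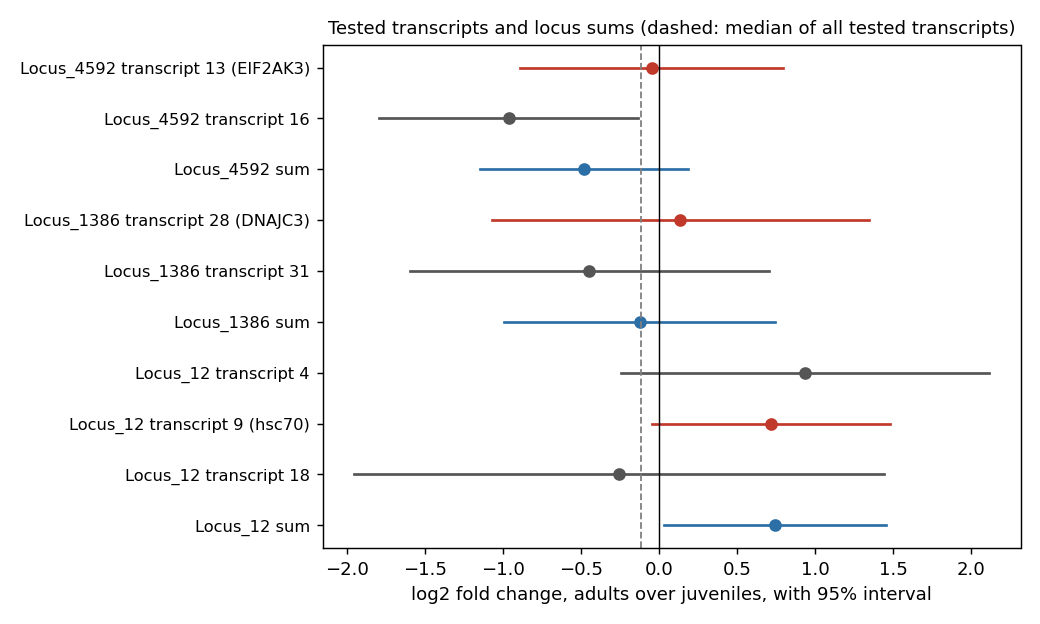
Log2 fold change of adults over juveniles with its 95% interval (horizontal axis) for the 7 tested transcripts and the 3 locus sums, with named transcripts in red, other transcripts in grey and sums in blue. The solid line is at 0 and the dashed line at the median of all tested transcripts, -0.11; the intervals of transcript 16 of Locus_4592 and of the Locus_12 sum are the ones that leave out 0 before adjustment over all features.

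Of 5 other transcripts of folding in the endoplasmic reticulum, GRP78, calnexin and PDIA4 were highest in juvenile 2, the animal lowest for the named transcripts with TMM, and PDIA3 was lowest in it. GRP78, the Hsp70 of that compartment (Locus_16062), had 371 and 410 CPM in adults 5 and 6, against 219, 466, 286 and 166 CPM in juveniles 1 to 4. Juvenile 2 was highest for GRP78 and juvenile 4 lowest, with plain totals too (487 and 219 CPM). Calnexin, a lectin chaperone of glycoproteins (Locus_344), had 222 and 274 CPM in the adults, against 118, 279, 150 and 133 CPM in the juveniles. The disulfide isomerase PDIA4 (Locus_8685) had 79.7 and 90.8 CPM in the adults, against 57.7, 115, 60.4 and 43.9 CPM in the juveniles. Both were highest in juvenile 2, as was GRP78, and they stayed so with plain totals, at 291 and 120.3 CPM. In the Hsp90-type chaperone gp96 (Locus_2016) that animal came after adult 6 with TMM and was highest with plain totals. The disulfide isomerase PDIA3 (Locus_3263) was different, with 253 and 147 CPM in the adults against 209, 101, 206 and 174 CPM in the juveniles, and juvenile 2 lowest. With plain totals adult 6, at 86.0 CPM, was below juvenile 2, at 105.6 CPM. Among all tested transcripts juvenile 2 was the lowest of the 6 animals in 25.2% and the highest in 24.5%, more often than any other animal in both cases. With plain totals it was the lowest in 16.4%, against 59.3% for adult 6, and the highest in 24.6%, against 36.8% for juvenile 4.

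**Figure D5:**
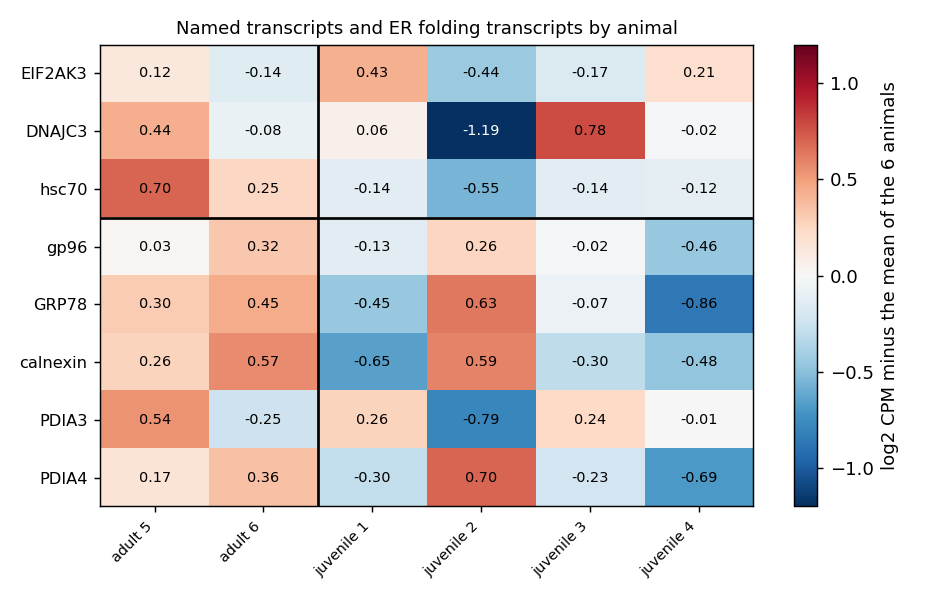
Log2 CPM minus the mean of the 6 animals (colour and printed value) for the 3 named transcripts above the horizontal line and 5 transcripts of folding in the endoplasmic reticulum below it, with the adults left of the vertical line. Juvenile 2 is at -0.44, -1.19 and -0.55 for EIF2AK3, DNAJC3 and hsc70, and at 0.63, 0.59 and 0.70 for GRP78, calnexin and PDIA4.

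Between the groups, all 5 of these transcripts had a log2 fold change above 0 with TMM, from 0.21 for PDIA3 to 0.55 for calnexin. Their median was 0.30, against -0.11 over all tested transcripts, and none passed (adjusted p of 0.700 to 0.896 from edgeR). With plain totals the adult mean was below the juvenile mean for all 5, so their direction depended on the scaling. The median over all tested transcripts was then -0.67. Adult 6 was then the lowest animal for gp96, PDIA4 and PDIA3, and adult 5 the highest for PDIA3. GRP78 then had 361 and 240 CPM in adults 5 and 6, against 219 to 487 CPM in the juveniles. Fold changes of the lists that follow are with TMM too, and their signs with plain totals were not examined. What share of all tested transcripts lay above 0 was not examined either. Transcripts of protein entry and glycosylation in the endoplasmic reticulum numbered 6, of which 5 were tested and all 5 lay above 0, with a median of 0.17. They include STT3A and OST48, subunits of the oligosaccharyltransferase, at 0.17 and 0.23, and ALG10, a glucosyltransferase of the lipid-linked sugar, at 0.69 (adjusted p = 0.572 from edgeR). EMC6, of the membrane protein complex, was not tested.

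Transcripts of cytosolic folding and protein turnover other than hsc70 numbered 9, of which 7 were tested, 6 with a log2 fold change above 0 and 1 below, and a median of 0.23. CAND1, an exchange factor of cullin ubiquitin ligases (Locus_15913), had 50.9 and 66.6 CPM in adults 5 and 6, against 26.0, 30.4, 22.1 and 25.5 CPM in juveniles 1 to 4. The adults were well above all juveniles (log2 fold change 1.18, standard error 0.31, unadjusted p = 0.00622, adjusted p = 0.560 from edgeR), and DESeq2 called it, the single such call in the lists of folding and turnover. PSMB7, a subunit of the proteasome core (Locus_3833), had 65.1 and 69.2 CPM in the adults and 34.8 to 57.9 CPM in the juveniles. That gap was not there with plain totals. Adult 6 had 1062 counts of it in a total of 26189571, fewer than the 1312 counts of juvenile 2 in a total of 21714696. The chaperonin subunit TCP1 zeta was at 0.23 on the log2 scale and UBQLN4, which carries ubiquitylated proteins to the proteasome, at 0.16, neither past the test.

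Transcripts of translation, the process that EIF2AK3 restrains, numbered 17, of which 16 were tested, 13 with a log2 fold change above 0 and 3 below, and a median of 0.47. None had an adjusted p under 0.05 in edgeR. An unadjusted one was found for 2, both matched to ribosomal proteins, which is 2 of 16 where 8.30% of all tested transcripts had one. These are counts of assembled transcripts and not of separate genes. Several short ones, of 104 to 140 nt, match the same gene, EF1A, and transcripts 3 and 8 of Locus_281 are both in the list. The initiation factor EIF5A2 (Locus_3954) had 136 and 100.2 CPM in adults 5 and 6, against 93.0, 83.8, 78.7 and 76.2 CPM in juveniles 1 to 4. Its log2 fold change was 0.51 (adjusted p = 0.637 from edgeR). With plain totals adult 6 was below juvenile 2, since it had 1538 counts against 1900 in that animal, whose total was smaller. All 8 muscle markers were above 0 as well, with a median of 0.71, none past the test. They include transcripts 17 and 20 of Locus_2678, both matched to talin-2. Myosin heavy chain, filamin-C and alpha-actinin-2 had 1.12, 1.48 and 0.27, and 7 of the 8 markers were lowest in juvenile 2. The 5 markers of cilia summed to 20.0 and 15.3 CPM in adults 5 and 6 and to 18.1 to 52.6 CPM in the juveniles. The 3 neural markers summed to 24.9 and 36.8 CPM in the adults and 19.02 to 36.6 CPM in the juveniles, with no marker at 0. Most of these sums was DNAH10 for cilia and GlyT1 for neural markers. Both adults were below all juveniles for the neural marker ELAV (1.12 and 0.782 against 1.24 to 6.59 CPM). The same held for enkurin of cilia (1.21 and 0.651 against 1.33 to 3.31 CPM), and the groups overlapped for the other markers of both lists. The part of these other cell types in the levels of the 3 loci was not tested. Names exist for 326 transcripts that the study annotated after comparing captive with wild animals, so these lists are not a sample of all genes of a pathway.

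Some named candidates lay closer to each of the 3 named transcripts than these lay to one another. Likeness was measured as the root mean square difference of log2 CPM, centred on each transcript's mean, over the 6 animals and 202 named candidates outside the 3 loci. It was 0.39 between EIF2AK3 and hsc70, 0.49 between DNAJC3 and hsc70 and 0.54 between EIF2AK3 and DNAJC3. The nearest to EIF2AK3 were transcripts matched to the ATPase OLA1 (0.21), subunit H of the V-type proton pump (0.23) and UBQLN4 (0.23). Nearest to DNAJC3 were the ribosome recycling factor ABCE1 (0.23), the lipid carrier named collagen type IV alpha-3-binding protein (0.25) and ABCF2 (0.29). Nearest to hsc70 were the succinyltransferase of the 2-oxoglutarate dehydrogenase complex (0.15), pyruvate kinase (0.17) and the cohesin subunit rad21 (0.19). The median over all candidates was 0.55 for EIF2AK3, 0.73 for DNAJC3 and 0.50 for hsc70. Each value between 2 named transcripts was below the medians of both, though 0.54 was close to 0.55 and 0.49 close to 0.50. The nearest were picked from 202 candidates, so their smaller values do not set the 3 named transcripts apart from one another. The succinyltransferase had 45.3 and 32.1 CPM in adults 5 and 6, against 23.2, 22.6, 31.2 and 27.3 CPM in juveniles 1 to 4, with the same animals at the top and at the bottom as hsc70.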

How the data were processed

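RNA of the body wall of 6 captive animals was sequenced as paired ends from stranded mRNA libraries. The authors assembled a transcriptome from wild animals, aligned the reads to it with HISAT2 under the FR strand setting, kept unique matches and deposited raw counts per assembled transcript, 1 column per animal. The submitters' processing notes also name edgeR 3.20.9. The version of HISAT2 and the counting program: not given in the sources used here. Names, and no values, came from the study's annotated sheets, whose columns of the authors' own comparison of captive with wild animals were not used.

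Deposited counts were analysed with R 4.3.3, edgeR 4.0.16, limma 3.58.1 and DESeq2 1.42.0. Transcripts, and sums over loci, reaching 3 CPM from plain totals in both adults and in 3 or more juveniles were scaled by TMM and tested with edgeR's quasi-likelihood test, without covariates, Benjamini-Hochberg adjusted over all tested features. Usage within loci was tested with diffSpliceDGE, and shares of the named transcripts with an exact permutation test over animals. Standard errors are the log2 fold change divided by the root of the F statistic, and log2 CPM used a prior count of 2. The tests were tried on simulated counts. Groups come from the labels, and separate animals are the replicates. Total counts ran from 21714696 to 31742950. On TMM-scaled totals 1 count was between 0.0267 CPM (juvenile 4) and 0.0651 CPM (adult 6).

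The text names the 3 matched transcripts, the 4 other transcripts of each locus with the highest mean CPM, any member past the test, up to 6 transcripts of each list and the 3 nearest transcripts of each named one. Further transcripts of Locus_12, CAND1's DESeq2 call and the ranks of juvenile 2 were singled out after their values were seen. Members and lists were chosen with earlier results of these data known. Alternatives covered normalization, filter, tool, leaving out mitochondrial and 28S ribosomal loci, and leaving out each animal. No sequence of the transcripts was used here.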

Additional observations from a re-analysis of the deposited data

Results flagged for a closer look

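Of 27 values examined over the 4 juveniles, 3 had 1 animal far from the rest by Dixon's ratio, the gap to the nearest animal over the whole range, which passes its 95% limit in about 5% of groups by chance. For transcript 31 of Locus_1386 the ratio was 0.926, with juvenile 4 at 9.44 CPM and the other juveniles between 24.8 and 26.0 CPM. For the hsc70 transcript of Locus_12 it was 0.941, with juvenile 2 at 26.9 CPM and the others between 35.9 and 36.5 CPM, whereas with plain totals the ratio was 0.607, which is within the limit. For transcript 34 of Locus_12 it was 0.846, with juvenile 1 highest at 5 counts and the others at 1 or 2 counts. With plain totals the ratio of transcript 31 was 0.834, still past the limit, and that of transcript 34 was 0.781, within it.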

How the results depend on the processing

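The 16 values with a direction (the 7 tested transcripts, 3 locus sums, 3 shares and the usage of the 3 named transcripts) were recomputed under 207 alternatives in all. Of these 185 kept the direction and stayed on the same side of the threshold, 22 had the opposite sign and none passed the threshold. The alternatives of the 3 shares could not pass it in any setting, since the permutation test has too few arrangements. For the shares only the direction could change. Those with the opposite sign were mostly values near 0, and the cause was not tested. EIF2AK3, at -0.05, had 0.024 with DESeq2, 0.024 with DESeq2 size factors, 0.043 with upper quartile normalization, 0.24 with filterByExpr, 0.14 without a filter, 0.14 with TMM over all counted transcripts (chosen after seeing the data) and 0.010 without mitochondrial and 28S ribosomal loci. DNAJC3, at 0.14, had -0.38 with library totals alone, and the Locus_1386 sum, at -0.13, had 0.037 with filterByExpr.

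With each animal left out in turn, log2 fold changes ran from -0.20 to 0.17 for EIF2AK3, -0.16 to 0.52 for DNAJC3, 0.46 (without adult 5) to 1.00 (without adult 6) for hsc70, -0.53 to 0.60 for transcript 18 of Locus_12, -0.91 to -0.044 for transcript 31 of Locus_1386, -0.65 to -0.27 for the Locus_4592 sum and -0.37 to 0.13 for the Locus_1386 sum. The usage of hsc70 ran from -0.080 to 0.15, the difference of its share from -3.21 to 6.60 points, and that of the share of DNAJC3 from 1.02 to 9.92 points. The lone adult then left is assumed to vary like the juveniles.

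The number of transcripts called, 0, was 190 with DESeq2, 11 with the exact test and 7 without a filter, and that of locus sums 154, 7 and 12. For usage it was 5 with filterByExpr, 12 without a filter and 0 to 4 with an animal left out, 3 without adult 5, 1 without adult 6 and 4 without juvenile 2. No member was called in any of these fits, which tested up to 21 of the 22 members, for usage too. No paired analysis was possible because the adults and juveniles are separate animals and the labels give no pairing. The adult difference of hsc70 itself did not pass the test in any setting run. Whether differences of that size passed for other transcripts was not examined. There were 2 adults, and adult 6 was scaled by 0.586.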
